A study of Mus musculus with 20 samples.

Results

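Transforming growth factor beta (TGF-beta) signalling was followed through 9 genes in mouse lung: the ligand genes Tgfb1, Tgfb2 and Tgfb3, the receptor genes Tgfbr1, Tgfbr2 and Tgfbr3, and 3 genes of the matrix and its proteases, Serpine2, Ctgf and Postn. They were chosen by symbol, with earlier results of these data known, and are 9 of the 24062 genes listed for each library. All 9 passed the filter on low counts. RNA-seq counts came from lungs of mice of a mixed C57/129 background, aged 8 to 10 weeks at the start and kept for 28 days in a chamber flushed with 10% oxygen (hypoxia) or 21% oxygen (room air). The 4 groups were Arg2-/- mice in hypoxia, Arg2-/- mice in room air, Arg2+/+ (wild type) mice in hypoxia and wild type mice in room air, with 4 samples in each. Arg2 encodes the mitochondrial arginase, and the series asks how its loss bears on the pulmonary hypertension that chronic hypoxia brings about in mice. No source used here gives the deleted part of Arg2. The RNA is from whole lung, so all its cell types are mixed. The 20 libraries gave 16 samples, since libraries A and B of one number were summed.

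TGF-beta ligands are secreted in a latent complex that binds the matrix, and integrins, thrombospondin and proteases release the active form. The active ligand is bound by the type II receptor, TGFBR2, which recruits and phosphorylates the type I receptor, TGFBR1. The type III receptor, betaglycan, the product of Tgfbr3, presents ligand to the others. The receptor pair phosphorylates SMAD proteins, which enter the nucleus and drive genes of the matrix, while inhibitory SMADs, ubiquitin ligases and a pseudoreceptor shut the pathway down. In lung vessels the pathway is known for its part in smooth muscle growth and matrix deposition. Ctgf, named Ccn2 in current annotation, encodes connective tissue growth factor, Postn encodes the matrix protein periostin, and Serpine2 encodes a secreted inhibitor of thrombin and plasminogen activators, also called protease nexin.

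Of the members with a RefSeq entry, Tgfb2, Tgfbr2 and Serpine2 passed a test described below, and their promoters are shown for that reason. Each sequence is the 250 bases before the RefSeq transcription start on GRCm38.p6, 5′ to 3′ on the strand of the gene, which is the minus strand for all 3. Capitals mark the SMAD box CAGAC and the core of the hypoxia response element, ACGTG or GCGTG, searched on both strands. Tgfb2 lies at chr1:186705990-186706239, Tgfbr2 at chr9:116175364-116175613 and Serpine2 at chr1:79858666-79858915. The Serpine2 window lies inside the gene as annotated by GENCODE (79794197 to 79861180), whose start is further upstream than the RefSeq start.
Tgfb2: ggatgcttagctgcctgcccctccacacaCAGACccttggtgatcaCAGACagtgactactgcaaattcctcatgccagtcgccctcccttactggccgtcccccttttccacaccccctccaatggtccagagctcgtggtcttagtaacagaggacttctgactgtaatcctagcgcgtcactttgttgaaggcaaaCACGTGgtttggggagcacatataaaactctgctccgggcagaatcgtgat
Tgfbr2: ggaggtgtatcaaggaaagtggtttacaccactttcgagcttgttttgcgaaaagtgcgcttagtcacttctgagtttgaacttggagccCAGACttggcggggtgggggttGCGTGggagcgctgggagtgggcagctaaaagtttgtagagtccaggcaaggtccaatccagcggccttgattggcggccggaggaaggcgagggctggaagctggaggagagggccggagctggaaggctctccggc
Serpine2: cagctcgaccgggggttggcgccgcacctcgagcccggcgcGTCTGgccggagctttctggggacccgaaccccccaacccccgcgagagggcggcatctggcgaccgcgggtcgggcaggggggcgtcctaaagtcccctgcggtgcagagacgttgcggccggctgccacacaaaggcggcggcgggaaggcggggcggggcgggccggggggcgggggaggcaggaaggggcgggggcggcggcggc
The Tgfb2 promoter held 2 SMAD boxes and 2 overlapping cores, one on each strand of the palindrome near its 3′ end, followed by a TATAAA. The Tgfbr2 promoter held 1 SMAD box and 1 core. The Serpine2 promoter held 1 SMAD box, on the opposite strand, and no core. Among 32851 RefSeq promoters of this length, 42.2% held a SMAD box, 38.6% a core and 12.4% a TATAAA, so these matches describe the letters and no more. RefSeq promoters were found for 6 of the 9 members. Those of Tgfb1, Tgfbr1 and Postn were searched in the same way, and Tgfb3, Tgfbr3 and Ctgf had no entry.

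Between 9531270 and 63331530 reads were counted in genes per sample, so that a count of 0 would allow up to 0.0474 to 0.3148 CPM, the unit of counts scaled to a common library size, counting error only. Wild type room air 3 stood apart, with the fewest reads in genes. Of its reads placed in a gene or in no feature, 25.4% were in genes. Elsewhere the share ran from 35.5% in wild type hypoxia 1 and 37.7% in Arg2-/- hypoxia 3 up to 64.2%. Arg2 measured 4.28 ± 0.91 CPM in Arg2-/- hypoxia, 5.62 ± 1.47 CPM in Arg2-/- room air, 9.30 ± 2.25 CPM in wild type hypoxia and 9.19 ± 1.92 CPM in wild type room air (SD, n = 4 each). The genotypes differed in hypoxia (log2 fold change -1.13 ± 0.22, SE; adjusted p = 0.00191, edgeR) and not past the threshold in room air (-0.70 ± 0.21, adjusted p = 0.0842), where DESeq2 (-0.69, adjusted p = 0.0268) and limma voom (-0.71, adjusted p = 0.0349) called it lower in the knockout. The Arg2 gene overlaps Vti1b on the other strand. Whether the counting used strand is not stated, so reads of Arg2 and Vti1b may not be told apart. Lung epithelial markers summed to 28254 CPM or more in every sample, as the tissue label says. RNA of other organs stood out in 5 samples, called below the 5 samples with RNA of other organs. Pancreas markers summed to 1579 CPM in Arg2-/- hypoxia 1 and 124 CPM in Arg2-/- hypoxia 2. They summed to 16.8 CPM in Arg2-/- hypoxia 3 and at most 4.42 CPM in the rest. Heart muscle markers reached 1074 CPM in Arg2-/- room air 3 and stood at 187 CPM or more in every sample. Thymocyte markers reached 90.4 and 73.1 CPM in Arg2-/- room air 3 and 4. Skeletal muscle markers reached 1356 CPM in wild type room air 1 and 50.7 CPM in wild type room air 2. The fit without the 5 samples kept Arg2-/- hypoxia 3 and wild type room air 2, so it was not free of such RNA. All 20 libraries had more reads from Y-linked genes than from Xist, although the labels speak of both sexes. The labels do not say that each numbered sample is a separate animal, so the spread behind the p-values may be technical in part.

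Levels of different genes were compared as CPM per kilobase of exon. The length was the union of all annotated exons of a gene. Which transcripts the lungs held was not tested, so levels and shares between genes depend on that choice. Tgfb3 was the most abundant ligand transcript in all 16 samples, at 15.5 ± 1.15 CPM per kb in Arg2-/- hypoxia, 13.1 ± 0.93 in Arg2-/- room air, 18.7 ± 0.91 in wild type hypoxia and 13.2 ± 1.35 in wild type room air (SD, n = 4 each). It supplied between 49.2% and 65.1% of the summed ligand level of a sample. Tgfb2 and Tgfb1 were close. In wild type hypoxia Tgfb2 stood at 7.36 ± 0.25 and Tgfb1 at 5.17 ± 0.45 CPM per kb, and Tgfb2 was above Tgfb1 in all 4 samples. In wild type room air both averaged 5.97 CPM per kb, and Tgfb1 was the higher in 3 samples.

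Tgfbr2 was the most abundant receptor transcript in all 16 samples, at 47.4% to 66.6% of the summed receptor level. It stood at 56.0 ± 2.98 CPM per kb in Arg2-/- hypoxia, 45.4 ± 3.32 in Arg2-/- room air, 65.0 ± 3.63 in wild type hypoxia and 49.3 ± 2.95 in wild type room air. Tgfbr1 and Tgfbr3 lay between 17.8 and 26.5 CPM per kb as group means and changed places between samples. Tgfbr1 was above Tgfbr3 in all 4 Arg2-/- hypoxia samples and in 3 in Arg2-/- room air, against 2 in wild type hypoxia and 1 in wild type room air. Ctgf, at group means of 64.4 to 72.2 CPM per kb, was above Postn, at 51.9 to 59.6, in 15 samples, while Serpine2 was the lowest of these 3 in every sample, at 9.24 to 16.2 CPM per kb. The order of Ctgf and Postn rests on the exon lengths, 2.86 kb for Ctgf and 8.7 kb for Postn. In plain CPM the group means were 184 to 207 for Ctgf and 452 to 518 for Postn.

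**Figure D1:**
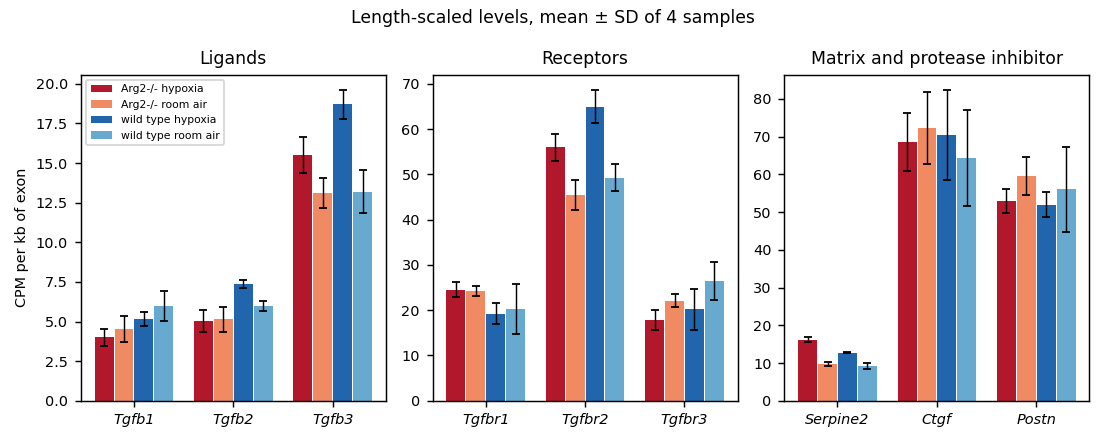
Levels of the 9 genes in CPM per kilobase of exon, bars for the mean and error bars for the SD of 4 samples per group, in panels for ligands, receptors, and matrix and protease inhibitor genes. Tgfb3 and Tgfbr2 lead their panels in all 4 groups, and Serpine2 is the lowest of its panel, at 9.24 to 16.2 CPM per kb.

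The 4 comparisons and the difference between the effects of hypoxia were tested in a single edgeR quasi-likelihood fit over 15766 genes, and a gene was called when its Benjamini-Hochberg adjusted p was under 0.05. Leaving out a sample outside the compared groups bears on a call only through the shared fit and the adjustment over all genes. In wild type lungs hypoxia raised Tgfb3, Tgfbr2 and Serpine2, and in Arg2-/- lungs it raised Serpine2 and Tgfbr2. In hypoxia, Arg2-/- lungs had less Tgfb2, Tgfb3 and Tgfbr2 and more Serpine2 than wild type lungs. In room air no member was called between the genotypes, and for no member was the effect of hypoxia called different between them. Over all genes tested the median log2 fold change lay within 0.05 of 0 in every comparison.

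**Figure D2:**
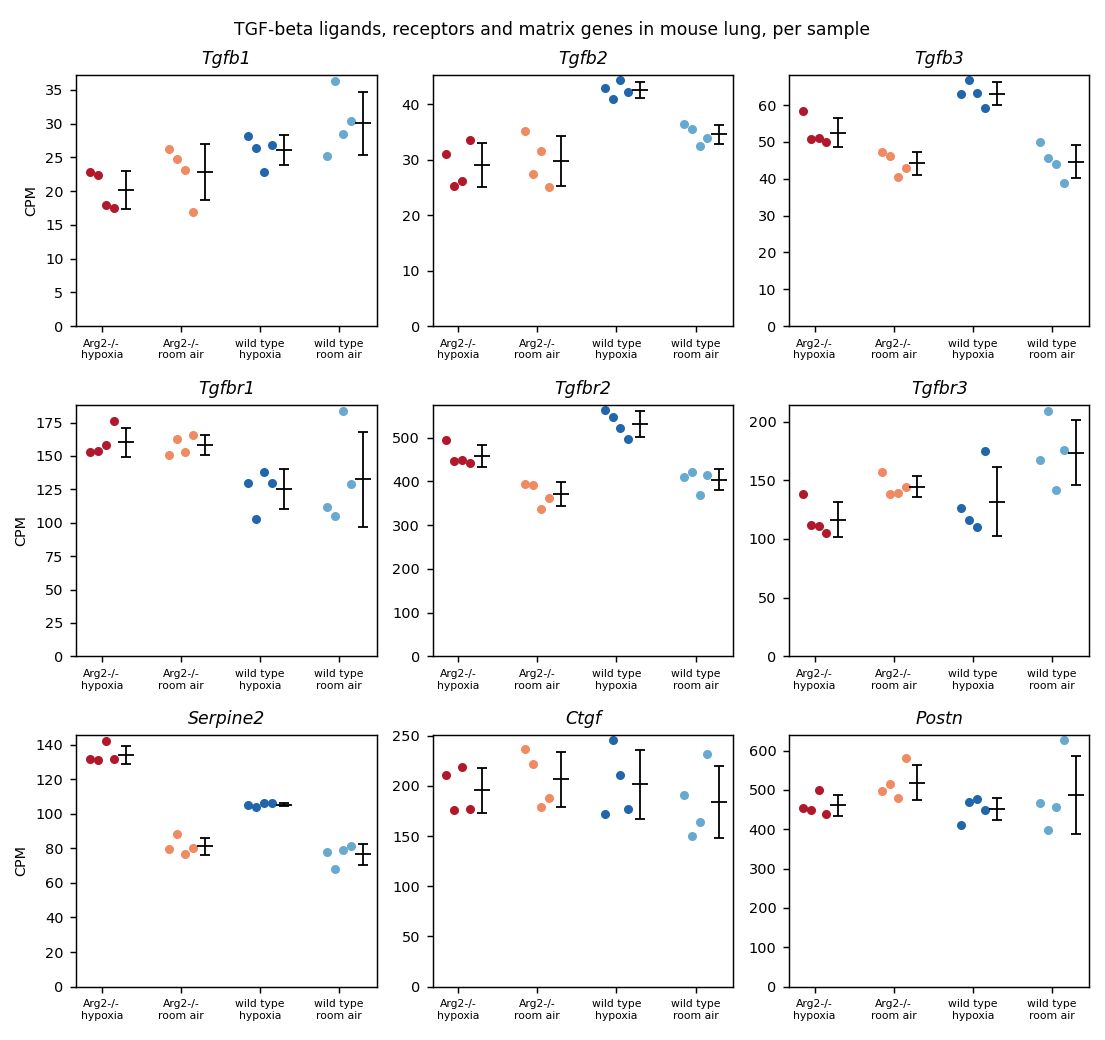
CPM of the 9 genes in each of the 16 samples, with points for samples 1 to 4 of a group from left to right and a bar for the mean ± SD (n = 4). The 4 wild type hypoxia samples lie at 40.9 to 44.4 CPM for Tgfb2, above every other sample, and the 4 Arg2-/- hypoxia samples at 131 to 142 CPM for Serpine2, also above every other sample.

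Among the ligands, Tgfb3 (chromosome 12, 86056745 to 86079041, minus strand of GRCm38) changed with hypoxia. Its gene lies 6.9 Mb from Arg2 and overlaps Ttll5 on the other strand. No source used here says whether the counting used strand, so reads of Tgfb3 and Ttll5 may not be told apart. Tgfb3 measured 58.3, 50.8, 51.0 and 49.9 CPM in Arg2-/- hypoxia and 47.4, 46.1, 40.4 and 43.0 CPM in Arg2-/- room air. It measured 63.1, 66.9, 63.3 and 59.3 CPM in wild type hypoxia and 50.0, 45.7, 44.1 and 38.9 CPM in wild type room air. In both genotypes every hypoxia sample was above every room air sample, and every Arg2-/- hypoxia sample was below every wild type hypoxia sample. The rise in wild type was 0.50 ± 0.09 on the log2 scale (adjusted p = 0.00119, edgeR). The difference in Arg2-/- lungs was 0.25 ± 0.08 and missed the threshold (adjusted p = 0.0506), but was called in 9 of 26 alternative fits, 4 of them without one sample, wild type hypoxia 2 or wild type room air 1, 3 or 4 (0.25 in each, adjusted p down to 0.0372). Those 4 samples are not part of that comparison and bear on it only through the shared fit. Without the 5 samples with RNA of other organs the difference in Arg2-/- lungs was 0.11 (adjusted p = 0.667). Between the genotypes in hypoxia Tgfb3 was lower in the knockout (-0.27 ± 0.08, adjusted p = 0.0303). That call was lost after removal of the GC trend (-0.17, adjusted p = 0.132), without the 5 samples with RNA of other organs (-0.32, adjusted p = 0.0543), and without any one of Arg2-/- hypoxia 2, 3 or 4 or wild type hypoxia 1, 2 or 3 (-0.24 to -0.27, adjusted p up to 0.0923).

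Tgfb2 (chromosome 1, 186622792 to 186705989, minus strand), whose promoter is shown above with its motifs, separated the genotypes under hypoxia. It measured 31.1, 25.3, 26.2 and 33.6 CPM in Arg2-/- hypoxia and 35.1, 27.4, 31.5 and 25.0 CPM in Arg2-/- room air, against 42.9, 40.9, 44.4 and 42.3 CPM in wild type hypoxia and 36.4, 35.6, 32.5 and 33.9 CPM in wild type room air. Wild type hypoxia stood above all other samples with little spread, and the 2 Arg2-/- groups overlapped. In hypoxia Tgfb2 was lower in the knockout by a log2 fold change of -0.55 ± 0.11 (adjusted p = 0.00193, edgeR), a call kept in all 26 alternatives. The effect of hypoxia in wild type was 0.30 ± 0.11 and did not pass (adjusted p = 0.126), although the groups did not overlap. In Arg2-/- lungs it was -0.04 ± 0.11 (adjusted p = 0.859). The difference between these effects, -0.33 ± 0.15, had an unadjusted p of 0.0364 and did not pass over all genes (adjusted p = 0.317).

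Tgfb1 (chromosome 7, 25687002 to 25705077, plus strand), the ligand made by many immune and stromal cells, measured 22.9, 22.4, 18.0 and 17.5 CPM in Arg2-/- hypoxia and 26.3, 24.8, 23.2 and 16.9 CPM in Arg2-/- room air. It measured 28.2, 26.4, 22.9 and 26.9 CPM in wild type hypoxia and 25.2, 36.3, 28.4 and 30.4 CPM in wild type room air. The knockout groups lay lower. In hypoxia the highest knockout sample, at 22.9 CPM, was level to 3 digits with the lowest wild type sample. Neither genotype comparison passed: the log2 fold change was -0.37 ± 0.14 in hypoxia (adjusted p = 0.0615, edgeR) and -0.40 ± 0.14 in room air (adjusted p = 0.111). The comparison in hypoxia was called in 8 of 26 alternatives, among them the fits without the 5 samples with RNA of other organs (-0.56, adjusted p = 0.0191), without Arg2-/- hypoxia 1 (-0.44, adjusted p = 0.0455), without Arg2-/- room air 4 (-0.37, adjusted p = 0.0344) and without wild type room air 2 (-0.37, adjusted p = 0.0474). The room air samples are not part of the comparison in hypoxia. Hypoxia gave -0.18 ± 0.14 in Arg2-/- lungs and -0.21 ± 0.14 in wild type lungs, neither called. Without the 5 samples the value in Arg2-/- lungs was -0.53 (adjusted p = 0.0505).

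Among the receptors, Tgfbr2 (chromosome 9, 116084293 to 116175360, minus strand) had a pattern close to that of Tgfb3. It measured 495, 447, 449 and 443 CPM in Arg2-/- hypoxia and 395, 392, 337 and 363 CPM in Arg2-/- room air. It measured 564, 547, 522 and 496 CPM in wild type hypoxia and 411, 421, 368 and 415 CPM in wild type room air. In both genotypes the hypoxia samples lay above the room air samples without overlap, and in hypoxia the highest knockout sample fell just under the lowest wild type sample. Tgfbr2 rose by 0.30 ± 0.08 in Arg2-/- lungs (adjusted p = 0.00879, edgeR) and by 0.40 ± 0.08 in wild type lungs (adjusted p = 0.00306). The call in Arg2-/- lungs was lost without the 5 samples with RNA of other organs (0.18, adjusted p = 0.417), where 2 samples remained in each knockout group. Hypoxic Arg2-/- lungs had less of it than hypoxic wild type lungs (-0.22 ± 0.08, adjusted p = 0.0467). This call lay at the threshold and was lost in 15 of 26 alternatives, with values of -0.18 to -0.26. Leaving out any one of Arg2-/- hypoxia 2, 3 or 4, wild type hypoxia 1, 2 or 3, Arg2-/- room air 1, 2 or 4 or wild type room air 1 or 4 was enough (adjusted p up to 0.123). The room air samples among these are not part of that comparison and bear on it only through the shared fit.

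Tgfbr1 (chromosome 4, 47353222 to 47414931, plus strand), the signalling partner of TGFBR2, measured 153, 154, 158 and 176 CPM in Arg2-/- hypoxia and 151, 163, 153 and 166 CPM in Arg2-/- room air. It measured 130, 103, 138 and 130 CPM in wild type hypoxia and 112, 105, 184 and 129 CPM in wild type room air. The knockout samples lay above the wild type samples in hypoxia, and in room air wild type sample 3, at 184 CPM, was the highest of all 16. The log2 fold change between genotypes was 0.36 ± 0.13 in hypoxia (adjusted p = 0.0618, edgeR) and 0.26 ± 0.13 in room air (adjusted p = 0.26). Without wild type room air 3, the sample with the fewest reads in genes, the room air difference was 0.46 and was called (adjusted p = 0.00504). The hypoxia difference stayed at 0.36 and was called too (adjusted p = 0.00762). Over all genes that fit called 2198 in room air, against 12, and 4337 in hypoxia, against 3633. Wild type room air 3 is not part of the hypoxia comparison and bears on it only through the shared fit. The hypoxia difference was called in 6 of 26 alternatives in all: also without wild type room air 2 (adjusted p = 0.0408), with the compared groups only (0.0189), with a replicate block (0.0356), with DESeq2 (0.0479) and with limma voom (0.048), at 0.36 in each. With the GC trend removed it was 0.16 (adjusted p = 0.205), and the room air difference 0.07. Hypoxia gave 0.02 ± 0.13 in Arg2-/- lungs and -0.07 ± 0.13 in wild type lungs.

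The ratio of Tgfbr2 to Tgfbr1, per kilobase, was 2.01 to 2.59 in Arg2-/- hypoxia and 1.75 to 2.08 in Arg2-/- room air. It was 3.03 to 4.22 in wild type hypoxia. In wild type room air it was 1.60 in sample 3 and 2.57 to 3.21 in the others. The knockout and wild type ranges did not overlap in hypoxia, and in room air they did so through sample 3. This ratio was chosen after the values were seen and is a description.

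Tgfbr3 (chromosome 5, 107106570 to 107289629, minus strand) measured 138, 112, 111 and 105 CPM in Arg2-/- hypoxia and 157, 138, 139 and 144 CPM in Arg2-/- room air. It measured 126, 116, 110 and 175 CPM in wild type hypoxia and 167, 209, 142 and 176 CPM in wild type room air. The means were lower in hypoxia, but the groups touched or overlapped in both genotypes. The log2 fold change was -0.31 ± 0.14 in Arg2-/- lungs (adjusted p = 0.13, edgeR) and -0.40 ± 0.14 in wild type lungs (adjusted p = 0.11), and neither was called. Wild type hypoxia 4 and wild type room air 3 decided the second: without the one it was -0.56 (adjusted p = 0.00576) and without the other -0.48 (adjusted p = 0.0424). Without wild type hypoxia 4 the effect in Arg2-/- lungs, -0.31, was called too (adjusted p = 0.0471), and a fit on the compared groups alone also called it (-0.32, adjusted p = 0.0128).

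Serpine2 (chromosome 1, 79794197 to 79861180, minus strand) had the smallest adjusted p of the 9 genes in both comparisons of hypoxia with room air. It measured 132, 131, 142 and 132 CPM in Arg2-/- hypoxia and 79.8, 88.1, 76.8 and 80.4 CPM in Arg2-/- room air. It measured 105, 104, 106 and 106 CPM in wild type hypoxia and 77.8, 68.0, 78.9 and 81.6 CPM in wild type room air. Hypoxia samples stood above room air samples in both genotypes, Arg2-/- hypoxia stood above wild type hypoxia, and the room air groups overlapped. Serpine2 rose by 0.73 ± 0.07 in Arg2-/- lungs (adjusted p = 1.27e-06, edgeR) and by 0.46 ± 0.07 in wild type lungs (adjusted p = 0.000443), and in hypoxia it was higher in the knockout by 0.35 ± 0.07 (adjusted p = 0.00244). These 3 calls were kept in all 26 alternatives. The difference between the effects of hypoxia, 0.27 ± 0.10, had an unadjusted p of 0.0146 and did not pass over all genes (adjusted p = 0.22).

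Ctgf (chromosome 10, 24595442 to 24598683, plus strand), a classical immediate target of TGF-beta, measured 211, 176, 219 and 177 CPM in Arg2-/- hypoxia and 237, 222, 179 and 188 CPM in Arg2-/- room air. It measured 172, 246, 211 and 177 CPM in wild type hypoxia and 191, 150, 164 and 232 CPM in wild type room air. All 4 groups overlapped, and the log2 fold changes of hypoxia were -0.08 ± 0.14 in Arg2-/- lungs and 0.13 ± 0.14 in wild type lungs. Postn (chromosome 3, 54361109 to 54391037, plus strand), a target of TGF-beta in fibroblasts and smooth muscle, measured 455, 448, 501 and 439 CPM in Arg2-/- hypoxia and 497, 516, 479 and 581 CPM in Arg2-/- room air. It measured 412, 469, 476 and 450 CPM in wild type hypoxia and 468, 398, 456 and 628 CPM in wild type room air. Its groups overlapped as well, with -0.17 ± 0.11 for hypoxia in Arg2-/- lungs and -0.11 ± 0.11 in wild type lungs. Neither gene was called in any comparison, and the SEs of 0.11 to 0.14, against 0.07 to 0.09 for Serpine2, Tgfbr2 and Tgfb3, limit what could be detected.

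**Figure D3:**
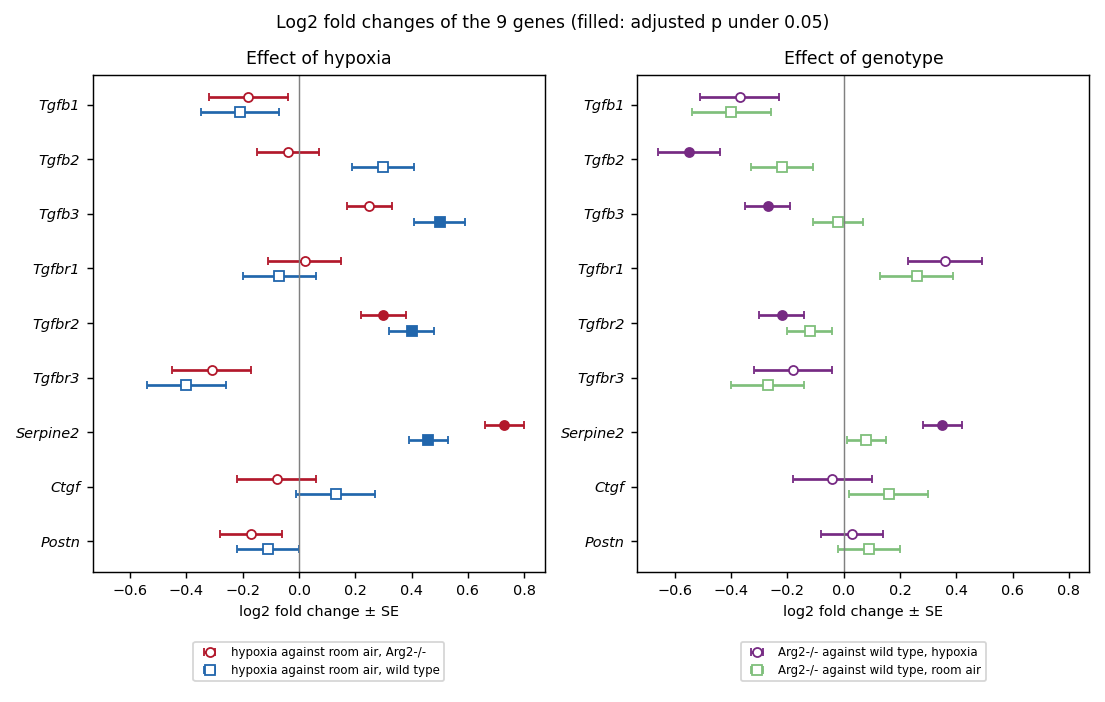
Log2 fold changes ± SE of the 9 genes from the edgeR fit, for hypoxia against room air in Arg2-/- and wild type lungs (left) and for Arg2-/- against wild type in hypoxia and room air (right), with filled symbols for an adjusted p under 0.05. Serpine2 has the largest effect of hypoxia in Arg2-/- lungs, 0.73, and Tgfb3 in wild type lungs, 0.50, next to 0.46 for Serpine2, and Tgfb2 the largest genotype difference, -0.55 in hypoxia.

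For hypoxia in wild type, 3 of the 9 members were called higher and 0 lower, against a background of 4.98% of all tested genes called, 2.67% higher and 2.31% lower. The members' median log2 fold change was 0.13, against -0.01 for all genes. For hypoxia in Arg2-/- lungs 2 were called higher and 0 lower, against 17.0% of all genes, 7.93% higher and 9.10% lower, with medians of -0.04 for the members and 0.00 for all genes. Between the genotypes in hypoxia 1 was higher and 3 were lower, where 23.0% of all genes were called, 11.0% higher and 12.1% lower, with medians of -0.18 and -0.01. Between the genotypes in room air 0 were called by edgeR, against 0.0761% of all genes or 12 genes, while 3408 genes had an unadjusted p under 0.05. The difference between the effects of hypoxia was called for 0 members and 0.501% of all genes by edgeR, with 2225 genes at an unadjusted p under 0.05. DESeq2 and limma voom also called 0 members in these last 2 tests. The comparisons share groups, so their counts are not independent of each other. The members, and the lists below, were chosen with earlier results of these data known. Their counts beside the share of all genes are therefore a description and no test.

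Markers of other cells moved with these comparisons. Of 8 B cell markers, 8 were called lower by hypoxia in Arg2-/- lungs, 3 by hypoxia in wild type and 8 in Arg2-/- against wild type lungs in hypoxia. Their summed level was 33.1 to 55.2 CPM in Arg2-/- hypoxia, 89.2 to 145 in Arg2-/- room air, 71.5 to 131 in wild type hypoxia and 111 to 236 in wild type room air. Of 12 T and natural killer cell markers, 11, 4 and 7 were called lower in the same comparisons, and summed to 33.8 to 57.5 CPM in Arg2-/- hypoxia, 99.0 to 152 in Arg2-/- room air, 73.2 to 76.8 in wild type hypoxia and 103 to 147 in wild type room air. Markers of pericytes and smooth muscle, of which 2 of 10 were called higher by hypoxia in each genotype, summed to 714 to 976 CPM in Arg2-/- hypoxia, 597 to 685 in Arg2-/- room air, 823 to 1013 in wild type hypoxia and 593 to 814 in wild type room air. Their median log2 fold change with hypoxia was 0.10 in Arg2-/- and 0.45 in wild type lungs. Within the sum Rgs5 supplied 119 to 173 CPM in Arg2-/- hypoxia and 5.46 to 8.42 CPM in Arg2-/- room air. Pdgfrb supplied 94.5 to 162 and 125 to 164 CPM. Between the genotypes in hypoxia, 1 of the 10 was called higher and 3 lower in the knockout, with a median log2 fold change of -0.25. Of 11 fibroblast markers, 0 were called higher and 3 lower in that comparison (median -0.24), 1 and 2 with hypoxia in Arg2-/- lungs and 1 and 0 with hypoxia in wild type, while their sum, 2226 to 3156 CPM over all samples, had group medians of 2450 to 2539. Of 10 endothelial markers, 4 were called higher and 2 lower between the genotypes in hypoxia, and 3 and 1 with hypoxia in Arg2-/- lungs and 1 and 1 in wild type. Heart muscle markers were called lower with hypoxia in Arg2-/- lungs for 6 of 10, and platelet and megakaryocyte markers for 3 of 8. In bulk lung, fewer cells of a type and less RNA per cell cannot be told apart, and the part of these shifts in the values of the 9 genes was not tested.

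The genes that hold TGF-beta latent or release it moved in both directions. Of 23 such genes tested, 4 rose and 2 fell with hypoxia in wild type, 5 rose and 2 fell in Arg2-/- lungs, and 1 was higher and 7 lower in the knockout in hypoxia. Over all genes 4.98%, 17.0% and 23.0% were called in these comparisons, and the list's medians were 0.18, 0.10 and -0.19. With the GC trend removed 8 rose in wild type, and 0 were higher and 4 lower in the knockout in hypoxia. Mmp2, a gelatinase that can release matrix-bound ligand, rose in both genotypes, to 83.1 ± 11.2 CPM in Arg2-/- hypoxia against 56.7 ± 6.79 in room air (0.55 ± 0.13, adjusted p = 0.00732, edgeR), and to 96.9 ± 18.5 CPM in wild type hypoxia against 56.9 ± 7.28 in room air (0.76 ± 0.13, adjusted p = 0.00166). Bgn, the proteoglycan biglycan that binds the ligand, also rose in both (0.47 ± 0.12 in Arg2-/- and 0.48 ± 0.12 in wild type lungs). Ltbp1, the latent TGF-beta binding protein that tethers the complex to the matrix, reached 176 ± 17.3 CPM in Arg2-/- hypoxia, against 125 ± 11.7 in Arg2-/- room air (0.49 ± 0.09, adjusted p = 0.000718), and 174 ± 15.3 CPM in wild type hypoxia, against 137 ± 6.39 in wild type room air (0.35 ± 0.09, adjusted p = 0.0268). Thbs1, whose product thrombospondin can activate the latent complex, fell to 286 ± 58.9 CPM in wild type hypoxia, against 559 ± 118 in wild type room air (-0.97 ± 0.18, adjusted p = 0.00289). Nrros, which holds latent TGF-beta on myeloid cells, fell in both genotypes (-0.37 ± 0.10 in Arg2-/- and -0.50 ± 0.10 in wild type lungs), and Mmp9 fell in Arg2-/- hypoxia (-1.52 ± 0.32).

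In hypoxia the knockout had less Fbn1, the fibrillin of microfibrils, at 215 ± 31.2 against 297 ± 24.3 CPM in wild type (-0.47 ± 0.13, adjusted p = 0.0159, edgeR). It also had less of the activating integrin chain Itgb8, at 1.5 ± 0.15 against 2.76 ± 0.64 CPM (-0.86 ± 0.24), of Mmp9 (-1.15 ± 0.32) and of the matrix protein gene Ltbp2 (-0.68 ± 0.20). Without the 5 samples with RNA of other organs this list had 0 higher and 1 lower with hypoxia in Arg2-/- lungs, 2 and 2 in wild type, and 0 and 7 between genotypes in hypoxia. In that fit the Arg2-/- calls of Mmp2 (0.41), Ltbp1 (0.30), Bgn (0.23) and Mmp9 (-1.40), the wild type call of Bgn (0.42) and the Itgb8 call (-0.77) were lost. Several of these calls were lost when 1 sample was left out. Fbn1 was lost without Arg2-/- hypoxia 4 (-0.38, adjusted p = 0.063), Itgb8 without wild type hypoxia 1 (-0.70, adjusted p = 0.0591), and Bgn in wild type without wild type hypoxia 1 or 4 or wild type room air 1 or 4 (0.40 to 0.46, adjusted p up to 0.0948). Ltbp2 was lost without Arg2-/- hypoxia 3 or 4 or wild type hypoxia 2 or 4 (-0.53 to -0.65), and Mmp9 without Arg2-/- hypoxia 2, 3 or 4 or wild type hypoxia 2 (-0.82 to -1.13).

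Among 12 transducers and accessory receptors, 0 rose and 1 fell with hypoxia in wild type, where 4.98% of all genes were called, and 0 rose and 3 fell in Arg2-/- lungs, where 17.0% were. In hypoxia 0 were higher and 2 lower in the knockout, beside 23.0% of all genes. The medians were 0.04, 0.04 and -0.02. The count that rose in Arg2-/- lungs was 3 without wild type room air 3 and 2 with the GC trend removed, where the count lower between genotypes was 1. Eng, the endothelial co-receptor endoglin, fell in both genotypes, to 209 ± 42.2 CPM in Arg2-/- hypoxia against 331 ± 43.7 in room air (-0.66 ± 0.15, adjusted p = 0.00551, edgeR), and to 213 ± 38.7 CPM in wild type hypoxia against 400 ± 63.1 in room air (-0.91 ± 0.15, adjusted p = 0.00125). Acvrl1, the endothelial type I receptor that works with endoglin, stood at 469 ± 63.1 CPM in Arg2-/- hypoxia, below 571 ± 28.0 in Arg2-/- room air and 570 ± 44.6 in wild type hypoxia (-0.28 ± 0.09 in both comparisons). Smad3, a receptor-activated SMAD, was lower in Arg2-/- hypoxia, at 51.3 ± 4.23 CPM, than in wild type hypoxia, at 71.3 ± 5.75 CPM (-0.47 ± 0.11, adjusted p = 0.00609). It was also lower than in Arg2-/- room air, at 65.0 ± 7.28 CPM (-0.34 ± 0.11, adjusted p = 0.0396). The Smad3 call with hypoxia was lost without any one of Arg2-/- hypoxia 2, 3 or 4 or Arg2-/- room air 1, 2 or 4 (-0.28 to -0.36). The Acvrl1 calls were each lost in 5 of the 16 fits without one sample: with hypoxia those without Arg2-/- hypoxia 3 or 4 or Arg2-/- room air 1, 2 or 3 (-0.21 to -0.29), and between genotypes those without Arg2-/- hypoxia 3 or 4 or wild type hypoxia 1, 2 or 4 (-0.21 to -0.28). The genotype call of Acvrl1 was also lost with the GC trend removed (-0.15, adjusted p = 0.146) and with the compared groups only (-0.27, adjusted p = 0.0758). Without the 5 samples with RNA of other organs Acvrl1 stood at -0.50 with hypoxia and -0.45 between genotypes, and Eng in Arg2-/- lungs at -1.05.

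Of 12 inhibitors and feedback genes, 5 were higher and 1 lower in the knockout in hypoxia, where 11.0% of all genes were higher and 12.1% lower, and the list's median was 0.20. With hypoxia 1 rose and 3 fell in wild type, beside 4.98% of all genes, and 1 rose and 0 fell in Arg2-/- lungs, beside 17.0%. Smad6, an inhibitory SMAD induced mainly by bone morphogenetic proteins, stood at 114 ± 9.26 CPM in Arg2-/- hypoxia, against 59.4 ± 14.5 in wild type hypoxia (0.93 ± 0.12, adjusted p = 0.00013, edgeR). In wild type it fell to 59.4 CPM in hypoxia, against 121 ± 4.04 in room air (-1.03 ± 0.12, adjusted p = 3.47e-05). In the main fit it was the 1 gene of the 4 lists for which the effects of hypoxia were called different (0.83 ± 0.17, adjusted p = 0.0362), a call lost in 12 of 25 alternatives, 11 of them fits without one sample (0.76 to 0.86). Those were the fits without Arg2-/- hypoxia 1, 2 or 3, Arg2-/- room air 1, 2 or 4, wild type hypoxia 1, 2 or 3, or wild type room air 2 or 4.

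Skil, a repressor of SMAD complexes, stood at 232 ± 11.6 CPM in Arg2-/- hypoxia, against 136 ± 10.6 in wild type hypoxia (0.77 ± 0.09, adjusted p = 6.59e-05, edgeR). Smurf2, a ubiquitin ligase for the receptors, stood at 257 ± 15.8 against 191 ± 16.7 CPM (0.43 ± 0.09, adjusted p = 0.0039), and the related Smurf1 was lower in the knockout, at 71.8 ± 4.63 against 91.2 ± 3.46 CPM (-0.35 ± 0.08, adjusted p = 0.00667; -0.22 with the GC trend removed). Bambi, the pseudoreceptor, fell in wild type to 20.3 ± 4.97 CPM in hypoxia, against 33.5 ± 2.39 in room air (-0.73 ± 0.13, adjusted p = 0.00167). Smurf2 fell in wild type as well (-0.35 ± 0.09, adjusted p = 0.0322), a call lost without wild type hypoxia 1, 2 or 3 or wild type room air 3 (-0.24 to -0.38). Pmepa1, a feedback inhibitor that TGF-beta itself induces, rose in both genotypes, to 47.6 ± 4.86 CPM in Arg2-/- hypoxia against 31.2 ± 4.56 in room air (0.61 ± 0.10, adjusted p = 0.00028), and to 48.0 ± 2.56 CPM in wild type hypoxia against 24.3 ± 1.61 in room air (0.98 ± 0.10, adjusted p = 6.34e-06). The rise in Arg2-/- lungs was not called without the 5 samples with RNA of other organs (0.38, adjusted p = 0.106).

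**Figure D4:**
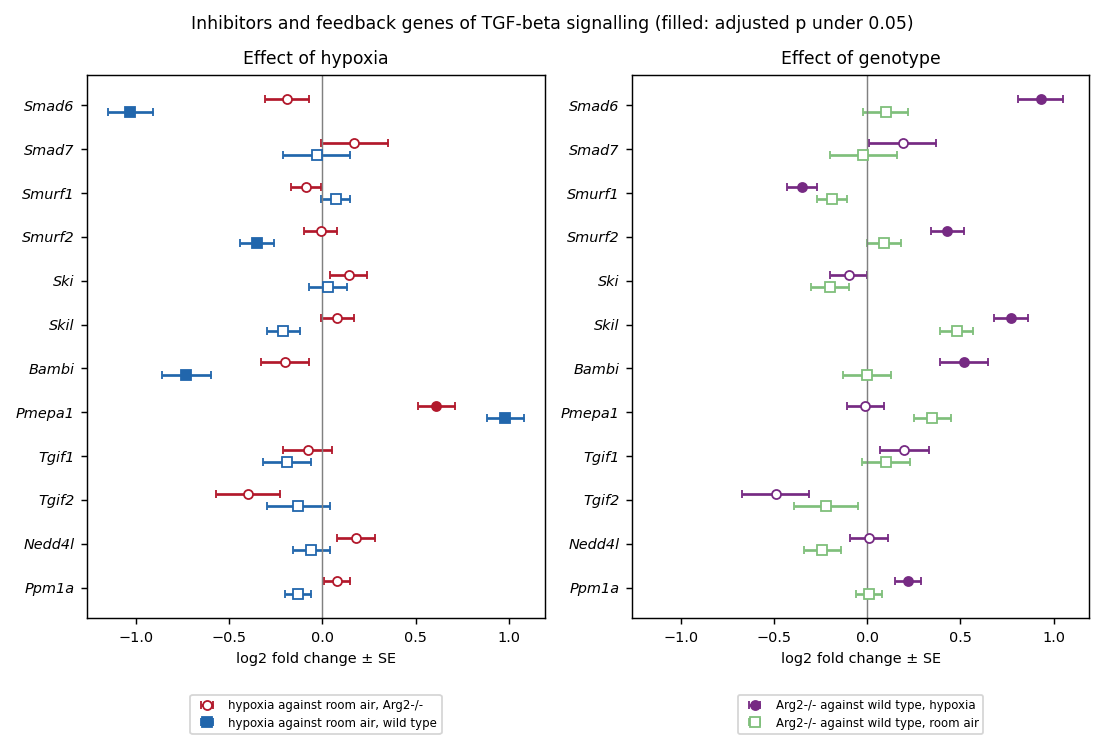
Log2 fold changes ± SE of the 12 inhibitors and feedback genes from the edgeR fit, drawn as for the 9 genes, with filled symbols for an adjusted p under 0.05. Smad6, Bambi and Smurf2 are lower with hypoxia in wild type lungs and lie near or closer to 0 in Arg2-/- lungs, and Skil, Smad6, Bambi, Smurf2 and Ppm1a are higher in the knockout in hypoxia.

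Of 27 other responsive genes of the matrix and cytoskeleton, 4 rose and 0 fell with hypoxia in wild type and 7 rose and 3 fell in Arg2-/- lungs. Between the genotypes 1 was higher in room air, and 3 were higher and 9 lower in the knockout in hypoxia. Over all genes 4.98%, 17.0%, 0.0761% and 23.0% were called, and the list's medians were 0.23, 0.14, 0.05 and -0.14, both in that order. With the GC trend removed 8 rose in wild type and 6 were lower in the knockout in hypoxia. In that fit the difference between the effects of hypoxia was called lower for 1 gene of this list, beside 178 of all genes. Without the 5 samples with RNA of other organs it was also called lower for 1, beside 35, against 0 beside 79 in the main fit. Lox, which crosslinks collagen and elastin, rose to 150 ± 14.5 CPM in Arg2-/- hypoxia, against 79.4 ± 8.62 in room air (0.92 ± 0.15, adjusted p = 0.000437, edgeR). In the main fit it was the 1 gene of the 4 lists called between genotypes in room air, where wild type had 40.8 ± 12.8 CPM (0.98 ± 0.16, adjusted p = 0.0273). That call was lost in 11 of 26 alternatives, 9 of them fits without one sample (0.86 to 1.05): Arg2-/- hypoxia 2, Arg2-/- room air 1, 2, 3 or 4, wild type hypoxia 3, or wild type room air 1, 2 or 4. Without wild type room air 3, 2198 of all genes were called in room air. In that fit the latency list had 1 higher and 2 lower, the transducers 0 and 0, the inhibitors 2 and 1 and this list 1 and 1. With the GC trend removed 1 inhibitor gene was called higher in room air, beside 46 of all genes. Eln, the elastin gene, rose with hypoxia by 1.00 ± 0.23 in Arg2-/- and 2.14 ± 0.23 in wild type lungs, and Lox rose by 1.37 ± 0.16 in wild type. Loxl2, of the same crosslinking family, rose by 0.63 ± 0.12 in Arg2-/- and 0.64 ± 0.12 in wild type lungs, and the matrix glycoprotein gene Sparc by 0.57 ± 0.09 and 0.45 ± 0.09.

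Cnn1, which encodes the smooth muscle protein calponin, fell to 30.3 ± 7.09 CPM in Arg2-/- hypoxia, against 51.3 ± 2.83 in room air (-0.76 ± 0.14, adjusted p = 0.00122, edgeR). In hypoxia the knockout had less Tgfbi, named for its induction by TGF-beta, at 83.1 ± 15.4 against 119 ± 20.7 CPM in wild type (-0.52 ± 0.12, adjusted p = 0.00532). It had less of the cell cycle inhibitor gene Cdkn2b, at 19.7 ± 0.58 against 27.9 ± 3.22 CPM (-0.50 ± 0.11), and of the collagen gene Col5a1 (-0.55 ± 0.14), and more of the metalloproteinase inhibitor gene Timp3, at 1420 ± 34.5 against 1130 ± 83.9 CPM (0.33 ± 0.09). The Timp3 call was lost without wild type hypoxia 1 (0.30, adjusted p = 0.0563). Without the 5 samples with RNA of other organs this list had 4 higher and 0 lower with hypoxia in wild type, 2 and 3 in Arg2-/- lungs, and 0 and 9 between genotypes in hypoxia. In that fit the calls of Loxl2 (0.40) and Sparc (0.49) in Arg2-/- lungs, of Sparc in wild type (0.42) and of Timp3 (0.35) were lost.

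The 9 genes did not vary as one. By the root mean square difference of their centred log2 CPM over the 16 samples, the closest pair was Tgfb3 and Tgfbr2 at 0.092 and the farthest Serpine2 and Tgfbr3 at 0.567. Among 14239 genes with a mean of at least 1 CPM, the 2 nearest to Tgfbr2 were Nrp2 (0.068) and Mfhas1 (0.082), and the 2 nearest to Tgfb3 were Gyg (0.089) and Tgfbr2 itself. Tgfb1 had Arhgap23 (0.090) and Hdac7 (0.109), and Tgfb2 had Pvrl2 (0.139) and Etl4 (0.141). Tgfbr1 had Dnaja2 (0.074) among its 2 nearest, and Tgfbr3 had Tln2 (0.103) and Sf1 (0.106). Serpine2 had Trpc6 (0.085) and Grb10 (0.102), Ctgf had Tfpt (0.142) and Pcolce2 (0.143), and Postn had Gucy1b3 (0.096) and Pcolce2 (0.098). These distances share depth, tissue composition and group structure and carry no test.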

How the data were processed

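Directional libraries were made from rRNA-depleted total RNA, per the labels' protocols. The submitters' processing notes name Trim Galore, TopHat2, HTSeq and the build mm10. Tool versions, gene annotation and strand setting: not given in the sources used here. Values deposited by the authors were raw counts per gene symbol. The 5 lines that name no gene were left out, and the A and B libraries of one number were summed (4 pairs, whose member CPM differed by ratios of 0.801 to 1.281). Of the reads placed in a gene or in no feature, 25.4% to 64.2% fell in genes. Reads on the other lines, among them those with more than 1 alignment, are not in that share.

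The tests used edgeR 4.0.16 under R 4.3.3, with filterByExpr (minimum count 10, total 15; 8296 genes removed), TMM scaling, 1 robust quasi-likelihood fit over all 4 groups without covariates, two-sided tests and Benjamini-Hochberg adjustment over 15766 genes. The common coefficient of variation was 15.8%. CPM used TMM-scaled library sizes. The fit was checked on simulated counts. Alternatives included DESeq2 1.42.0, voom of limma 3.58.1, other scalings, no filter, a GC trend removed, the A libraries only, the compared groups only, a replicate block and leaving out samples; their effects on the 4 pathway lists were added after seeing the data. Coordinates and exon lengths are from GENCODE vM21 on GRCm38.

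The members and lists were chosen with earlier results of these data known. Named genes are the 9 members, Arg2, up to 4 called genes with the smallest p per list and comparison, and the 2 nearest in pattern to each member, of which 1 is not reported here.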

Additional observations from a re-analysis of the deposited data

Results flagged for a closer look

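Of 36 sets of 4 samples (9 genes in 4 groups), 3 held a sample whose gap to its nearest neighbour, as a share of the range, exceeded Dixon's critical value, and chance gives about 1 in 20. All 3 were highest values in Arg2-/- hypoxia. Tgfb3 stood at 58.3 CPM in sample 1, against 49.9 to 51.0 CPM in the other samples of that group. Tgfbr2 stood at 495 CPM in the same sample, against 443 to 449 CPM. Serpine2 stood at 142 CPM in sample 3, against 131 to 132 CPM. Arg2-/- hypoxia 1 is also the sample with pancreas markers at 1579 CPM; their part in its Tgfb3 and Tgfbr2 values was not tested. Without that sample no called member lost its call in the fit.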

How the results depend on the processing

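Each comparison was refitted under 26 alternatives (25 for the difference between the effects). The calls of Serpine2 in 3 comparisons, of Tgfb3 and Tgfbr2 with hypoxia in wild type and of Tgfb2 between genotypes in hypoxia were kept in all 26. Members called with hypoxia in Arg2-/- lungs numbered 4 with the compared groups only, beside 3424 of all genes. They numbered 1 without the 5 samples with RNA of other organs, beside 1035, against 2 beside 2685 in the main fit. Between genotypes in room air they numbered 0 to 1 without one sample, beside 0 to 2198 of all genes, against 0 beside 12. In hypoxia they numbered 2 with the GC trend removed, beside 3371 of all genes. Without one sample they numbered 2 to 6, beside 2093 to 4337, against 4 beside 3633. With a replicate block 3 members and 823 genes were called for hypoxia in wild type, 3 and 2714 for hypoxia in Arg2-/- lungs, 0 and 238 between genotypes in room air, 6 and 3819 in hypoxia, and 0 and 157 for the difference between the effects. Same-numbered samples correlated at -0.33 to 0.46, 12 of 24 pairs above 0.1, and samples of different number at -0.56 to 0.53. Of 48 best partners, each picked from the 4 samples of another group, 19 had the same number. The main fit did not take the numbers as pairs, and whether same-numbered samples share an effect was not tested.

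Directions of members that were not called turned as follows, and the cause was not tested. With upper quartile scaling Tgfbr1 with hypoxia in Arg2-/- lungs (-0.01), Postn between genotypes in hypoxia (-0.01) and Tgfb1 for the difference between the effects (-0.01) turned. With the GC trend removed Tgfbr1 with hypoxia in Arg2-/- lungs (-0.01), Tgfb3 (0.07) and Postn (-0.36) between genotypes in room air, Postn between genotypes in hypoxia (-0.34) and Postn for the difference (0.02) turned. Tgfb3 between genotypes in room air stood at 0.00 with the compared groups only, 0.01 with the A libraries only and 0.13 without the 5 samples. Without those samples the differences between the effects were -0.24 for Tgfb1, -0.03 for Tgfbr3 and 0.02 for Postn.

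Without one sample, values with hypoxia in wild type ran from -0.17 to 0.12 for Tgfbr1, -0.20 to 0.04 for Postn and -0.09 to 0.18 for Arg2, and in Arg2-/- lungs from -0.12 to 0.05 for Tgfb2 and -0.03 to 0.04 for Tgfbr1. Between genotypes they ran from -0.08 to 0.04 for Tgfb3 in room air, and in hypoxia from -0.11 to 0.07 for Ctgf and -0.01 to 0.08 for Postn. Differences between the effects ran from -0.09 to 0.11 for Tgfb1, -0.10 to 0.19 for Tgfbr1, -0.01 to 0.25 for Tgfbr3 and -0.21 to 0.03 for Postn.

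Counts over all genes moved by more than 1.5 times in several alternatives. Hypoxia in wild type called 785 genes, 400 with the compared groups only, 477 without the 5 samples and 484 without wild type hypoxia 1. Hypoxia in Arg2-/- lungs called 2685, and 1035 without the 5 samples. Between genotypes in hypoxia 3633 were called, 2026 without the 5 samples, 2365 without Arg2-/- hypoxia 3 and 2093 without Arg2-/- hypoxia 4. In room air 12 were called, 0 to 2198 without one sample with the most without wild type room air 3, 0 without the 5 samples, 4 with the compared groups only, 20 without the filter, 46 with the GC trend removed, 29 with RLE and 113 with upper quartile scaling, 207 with the A libraries only, 974 with voom and 1092 with DESeq2. The difference between the effects called 79, 26 to 125 without one sample, 35 without the 5 samples, 178 with the GC trend removed and 474 with DESeq2. All members stood at 16.9 CPM or more in every sample, against 0.3148 CPM or less for the limit that a count of 0 allows.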
